A study of Mus musculus with 10 samples.

Results

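Transcript levels were compared between lymph node and spleen in mice given CD4+ T cells with oncogenic Vav1, a cancer-associated form of a signalling protein that acts downstream of the T cell receptor. The comparison used 6 of the 10 arrays of the series, the 2 titled oncogenic Vav1 (lymph node) and the 4 titled oncogenic Vav1 (spleen), with every measured gene represented by 1 probe set. The other 4 arrays, 2 of spleen and 2 of lymph node, came from mice that had received T cells carrying GFP alone, and they gave the tissue difference in the absence of the oncogene. All groups shared the C57BL/10 strain label, transduced CD4+ T cells, an immunocompromised host and a 6 month interval, and differed only in construct and organ. The strain, age and remaining cells of the hosts are not given in the sources used here, so transcripts of host cells and of transferred cells cannot be told apart.

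The descriptions name 7 animals. The spleen arrays 1 to 4 came from ONCO1, ONCO2, ONCO3 and ONCO4, lymph node array 1 came from ONCO2 and lymph node array 2 from ONCO3, so that these 2 animals gave both organs. In the controls CTL2 gave both organs, CTL4 a spleen and CTL1 a lymph node. Each array carries the name of a single animal, so replicates were different animals within a group, and p-values measure the spread between these few arrays. All values are log2 expression values, and a difference is lymph node minus spleen unless stated otherwise. Total RNA was measured, so fewer cells of a type and less RNA per cell cannot be told apart.

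The spleen filters blood and, in mice, also makes red cells and platelets, and its stroma develops under transcription factors such as Tlx1 and Nkx2-5. Lymph nodes filter lymph, admit naive T cells through high endothelial venules, lie embedded in fat and are laced with lymphatic vessels. A tissue comparison of lymphoid organs therefore reads stroma, vessels and adjoining fat as well as lymphocytes.

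The arrays were first set against their labels. T cell transcripts were present on every array, with Cd3e, the epsilon chain of CD3, between the 82.4 and 96.8 percentile of the 6 oncogenic Vav1 arrays and Cd4 between the 76.4 and 91.3 percentile. Of the other T cell markers chosen, Cd3d lay between the 73.6 and 90.1 percentile and Bcl11b between the 58.8 and 76.7. Trat1 lay far lower, between the 32.7 and 44.6 percentile. Markers of other cells were detected as well. The B cell receptor component Cd79a lay at or above the 95.3 percentile of every array in the series, and Lyz2, which encodes lysozyme of myeloid cells, no lower than the 98.8 percentile, although the labels name CD4+ T cells as the cell type.

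Both arrays labelled oncogenic Vav1 lymph node also carried spleen stroma transcripts at spleen level, as described below, and the pair differed widely. Other spleen lists did not all read at spleen level. The labels are kept as names, but how far these 2 arrays hold lymph node RNA alone was not tested, and every lymph node minus spleen value with oncogenic Vav1 rests on them. Over the 13393 genes tested, lymph node array 1 correlated with the 4 spleen arrays at r between 0.974 and 0.985 and with lymph node array 2 at 0.910, and both r are across genes, which are not independent replicates. Between the 2 lymph node arrays 1374 genes differed by over 1 on the log2 scale, against 4 genes between the GFP lymph nodes and 13 to 142 genes between pairs of oncogenic Vav1 spleens. Lymph node array 1 differed by that much from single spleens in 30 to 160 genes, and lymph node array 2 in 728 to 1355 genes. Lists are therefore given below for each lymph node array against the 4 spleens as well as for the pair. A single lymph node array shows no spread, so counts of calls on it are descriptive. They are to be read beside the shares of all genes called on array 2, given with the red cell genes. List counts with GFP are to be read beside 11.6% of all genes higher and 4.41% lower in lymph node. List counts at an unadjusted p under 0.05 by limma are to be read beside 1248 of the 13393 genes for the pair. Those on array 1 are to be read beside the count over all genes on it, given below.

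The 2 arrays named ONCO3 differed in Y-linked genes. The Y-linked gene Uty read 7.94, 8.20, 5.61 and 8.01 in spleens 1 to 4, and 8.16 and 8.74 in lymph nodes 1 and 2. Kdm5d, a Y-linked histone demethylase, read 7.04, 7.07, 4.97 and 7.06 in the spleens and 6.85 and 7.59 in the lymph nodes. Eif2s3y, a Y-linked translation initiation factor, read 9.00, 9.09, 6.88 and 9.03, then 9.23 and 9.48. In all 3 genes spleen 3 of ONCO3 lay at least 2 log2 units below the other spleens, while the lymph node labelled with the same animal lay with the others. Host and transferred cells are not told apart here, and whether these 2 arrays came from 1 animal was not tested.

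Between lymph node and spleen with oncogenic Vav1, 5 genes passed the threshold, all higher in lymph node (limma, Benjamini-Hochberg adjusted p under 0.05), which is 0.0373% of the 13393 genes tested. They were Car3, Fabp4, Adipoq and Retn, genes of fat cells, and Mcpt4, a protease of connective tissue mast cells. No gene was lower in lymph node at this threshold, although 1248 genes had an unadjusted p under 0.05 by limma. Both lymph node arrays lay above all 4 spleens in 982 genes, 7.33% of those tested, and below all 4 in 1075 genes, 8.03%. The GFP controls differed far more between the organs, with 1554 genes higher in lymph node (11.6%) and 590 lower (4.41%), or 16.0% of genes in all. With a common median for all arrays the GFP median over all genes moved to -0.14, and these counts were 1261 and 1254. With the median of each array's intronic control probe sets as a covariate they were 1449 and 1406. The GFP total of 2144 fell to 1159 or 1308 without GFP spleen 1 or 2 and to 863 or 1097 without GFP lymph node 1 or 2, and rose to 4274 or 4280 without oncogenic Vav1 lymph node 1 or 2. With the animal as a fixed block, in which only animals with both organs count and 1 residual degree of freedom is left, 0 genes passed with oncogenic Vav1 (155 at an unadjusted p under 0.05 by limma) and 24 with GFP. Without spleen 1, 3 or 4, or without either GFP spleen, 3 genes passed. Without lymph node array 2 it was 36 genes, and without lymph node array 1 it was 3812.

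The fat cell genes kept a large difference. Car3, a carbonic anhydrase abundant in fat cells and muscle, read 4.90, 4.17, 3.90 and 5.03 in spleens 1 to 4, and 9.49 and 11.13 in lymph nodes 1 and 2. The organs did not overlap, and the spleens lay near background, that is below the 40th percentile of their arrays. A difference from a group near background is measured from a floor, so its size is uncertain there and in the genes below. The fitted difference was 5.75 (SE 0.48, limma adjusted p = 0.0013), and with GFP it was 5.20 (SE 0.55). The difference between the 2 tissue differences of Car3, 0.55 (SE 0.73), had a limma adjusted p of 0.67.

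Fabp4 encodes a fatty acid carrier of fat cells that macrophages also make. It read 6.42, 6.96, 6.44 and 6.50 in the spleens and 10.10 and 11.43 in the lymph nodes, with no overlap and no group near background. The difference was 4.20 (SE 0.33, limma adjusted p = 0.0013), or 18.4-fold, beside 5.37 (SE 0.38) with GFP. Adipoq encodes adiponectin, a hormone secreted by fat cells. Its values were 4.15, 4.42, 4.37 and 5.15 in the spleens, near background, and 8.54 and 10.05 in the lymph nodes. Both lymph nodes lay over 3 log2 units above every spleen, and the difference was 4.76 (SE 0.42, limma adjusted p = 0.0015) beside 5.63 (SE 0.48) with GFP.

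Retn encodes resistin, another fat cell hormone in mice. Its spleen values of 4.99, 5.26, 5.20 and 5.17 were near background, and the lymph nodes read 7.57 and 9.45. The organs stood apart, by 3.37 (SE 0.41, limma adjusted p = 0.026) against 5.15 (SE 0.47) with GFP. Mcpt4 read 4.28, 4.21, 4.27 and 4.14 in the spleens, also near background, and 5.53 and 5.85 in the lymph nodes. Its difference of 1.47 (SE 0.19, limma adjusted p = 0.036) was smaller than the 3.20 (SE 0.22) with GFP, by 1.74 (SE 0.29, limma adjusted p = 0.0053). All 5 genes were higher in lymph node array 2 than in array 1, and all 5 passed with either lymph node array alone, a fit that leaves out the spread between the 2 arrays. Retn and Mcpt4 did not pass from the oncogenic Vav1 arrays alone (limma adjusted p = 0.22 and 0.061), nor without spleen 1, 3 or 4 or either GFP spleen. Mcpt4 also missed the threshold without spleen 2, and Retn without either GFP lymph node.

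**Figure D1:**
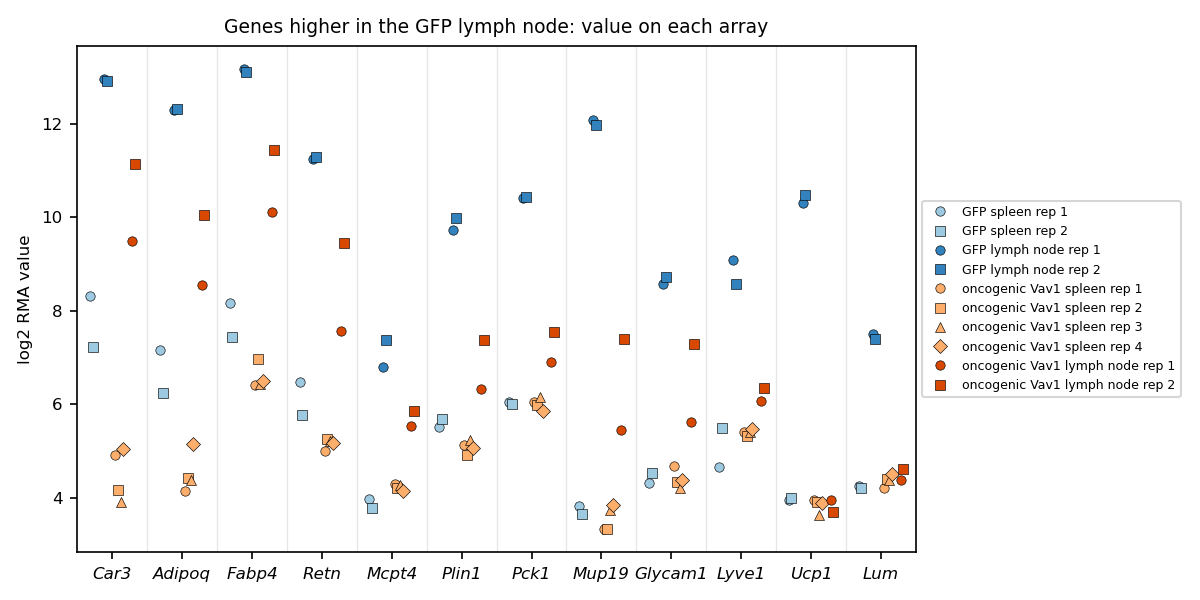
Log2 expression value on each of the 10 arrays for genes higher in lymph node, 1 point per array and grouped by construct and organ. Car3 stood at 3.90 to 5.03 in the oncogenic Vav1 spleens and at 9.49 and 11.13 in the lymph nodes, and GFP lymph nodes read 12.96 and 12.92.

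The 250 bases before the transcription start are shown for the called genes that RefSeq's table holds, 3 of the 5, since these genes were higher together in lymph node. Car3 and Fabp4 are named only. The build is GRCm38.p6, each sequence runs 5′ to 3′ along the gene's strand, and capitals mark matches to 4 motifs searched on both strands.
Adipoq, chr16:23146286-23146535, plus strand: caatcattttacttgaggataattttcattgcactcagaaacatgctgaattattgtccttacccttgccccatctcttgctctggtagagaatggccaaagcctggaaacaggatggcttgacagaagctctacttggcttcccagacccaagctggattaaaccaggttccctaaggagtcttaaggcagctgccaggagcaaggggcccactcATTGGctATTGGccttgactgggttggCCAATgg
Retn, chr8:3655520-3655769, plus strand: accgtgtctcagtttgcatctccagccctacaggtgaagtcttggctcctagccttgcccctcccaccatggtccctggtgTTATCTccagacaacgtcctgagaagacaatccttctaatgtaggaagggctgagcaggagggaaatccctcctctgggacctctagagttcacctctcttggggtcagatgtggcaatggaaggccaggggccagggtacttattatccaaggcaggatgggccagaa
Mcpt4, chr14:56062311-56062560, minus strand: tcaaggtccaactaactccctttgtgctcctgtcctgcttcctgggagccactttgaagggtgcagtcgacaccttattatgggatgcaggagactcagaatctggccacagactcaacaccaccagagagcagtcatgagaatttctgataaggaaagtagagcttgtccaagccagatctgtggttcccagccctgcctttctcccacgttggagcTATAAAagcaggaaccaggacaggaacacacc

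The motifs were TATAAA, the core promoter element, found in 12.4% of 32851 mouse promoters of this length, TTGCNNAA, a form of the C/EBP site (9.56%), AGATAA, a form of the GATA site (9.99%), and CCAAT (33.9%). Adipoq held CCAAT 3 times, with starts 34 and 27 bases before the transcription start on the reverse strand and 7 bases before it on the forward strand. Retn held AGATAA once, 169 bases before the start on the reverse strand. Mcpt4 held TATAAA 32 bases before the start. TTGCNNAA was in none of these 3 windows. The matches are a description of the letters only.

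White fat genes were higher in lymph node as a group. Of the 15 tested, 4 passed with oncogenic Vav1, all higher, where 5 of 13393 genes passed in all, and in 14 both lymph node arrays lay above all 4 spleens (7.33% of all genes). Their median difference was 1.65, beside -0.01 over all genes tested. In the GFP controls all 15 passed, with a median of 4.07. Their mean level was 5.69 to 5.84 in the oncogenic Vav1 spleens, 7.30 and 8.37 in lymph nodes 1 and 2, 6.53 and 6.32 in the GFP spleens, and 10.43 and 10.46 in the GFP lymph nodes. The oncogenic Vav1 lymph nodes thus stood between the spleens and the GFP lymph nodes.

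Plin1, the perilipin that coats fat droplets, shows the intermediate level. It read 5.12, 4.90, 5.23 and 5.05 in the spleens, 6.32 and 7.37 in the lymph nodes, and 9.71 and 9.98 in the GFP lymph nodes. The 3 groups did not overlap, and the oncogenic Vav1 spleens were near background. The difference of 1.77 (SE 0.26) had a limma adjusted p of 0.063 and that with GFP was 4.24 (SE 0.30). Pck1, the enzyme that feeds glycerol synthesis in fat cells, read 6.03, 5.97, 6.14 and 5.85 in the spleens and 6.91 and 7.54 in the lymph nodes, against 10.40 and 10.42 in the GFP lymph nodes. Its difference was 1.23 (SE 0.18, limma adjusted p = 0.063), against 4.40 (SE 0.21) with GFP.

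The major urinary protein genes, which encode carriers of odour molecules, followed the same order with wider steps. Mup19 read 3.33, 3.32, 3.73 and 3.83 in the spleens, 5.45 and 7.40 in the lymph nodes, and 12.08 and 11.97 in the GFP lymph nodes. Both groups of spleens were near background. Its difference with oncogenic Vav1 was 2.86 (SE 0.43, limma adjusted p = 0.073), against 8.30 (SE 0.50) with GFP. Mup9, Mup22 and Mup2 differed by 2.26, 2.34 and 1.43 with the oncogene and by 7.84, 7.22 and 5.99 with GFP. In all 4 genes both lymph nodes lay above all 4 spleens, which were near background. These genes are near-identical copies, so their probe sets may share signal, and they are not separate observations.

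Brown fat genes did not follow the white fat genes. Of 9 tested, 0 passed with oncogenic Vav1 by limma (2 at an unadjusted p under 0.05) and the median difference was 0.14, whereas 7 passed with GFP, all higher in lymph node, with a median of 2.11. Arrays 1 and 2 gave medians of 0.16 and 0.13, with 0 calls by limma (0 in array 1 at an unadjusted p under 0.05). Ucp1, the uncoupling protein that defines brown fat, read 3.96, 3.90, 3.63 and 3.88 in the spleens and 3.94 and 3.69 in the lymph nodes, all near background, while the GFP lymph nodes read 10.29 and 10.47. The organs overlapped with oncogenic Vav1 (difference -0.03, SE 0.16) and stood apart by 6.40 (SE 0.18) with GFP. Cidea and Cox8b, a lipid droplet protein and a respiratory chain subunit of brown fat, differed by 0.41 and 0.37 with the oncogene and by 3.39 and 3.61 with GFP.

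Matrix genes showed a small median difference with the oncogene. Of 15 fibroblast and matrix genes tested, 0 passed with oncogenic Vav1 by limma (3 at an unadjusted p under 0.05, median 0.11) and 10 were higher in GFP lymph node (median 1.12). Array 1 gave 0 calls by limma (3 at an unadjusted p under 0.05, median 0.30), and array 2 gave 2 higher and 3 lower (median 0.06). Lum, the collagen-binding proteoglycan lumican, read 4.21, 4.41, 4.38 and 4.49 in the spleens and 4.37 and 4.61 in the lymph nodes, near background in both, against 7.50 and 7.38 in the GFP lymph nodes. Col3a1, a fibrillar collagen, read 6.48, 6.51, 6.83 and 6.42 in the spleens and 7.05 and 6.69 in the lymph nodes, with overlap, against 9.68 and 9.80 with GFP. Dcn, the proteoglycan decorin, was already high in the oncogenic Vav1 spleens, at 11.26, 11.02, 10.22 and 11.20, and read 11.30 and 10.24 in the lymph nodes. GFP spleens read 8.88 and 9.71 for Dcn and GFP lymph nodes 12.48 and 12.44.

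Vessel genes of lymph nodes were mixed. Of 11 high endothelial venule genes tested, 0 passed by limma with the pair of arrays (1 at an unadjusted p under 0.05, median 0.10) and 3 were higher in GFP lymph node (median 0.12). Array 1 gave 1 higher (median 0.13), and array 2 gave 5 higher and 1 lower (median -0.04). Glycam1, a mucin-like ligand for L-selectin on these venules, read 4.68, 4.33, 4.20 and 4.37 in the spleens and 5.61 and 7.28 in the lymph nodes. The organs did not overlap, and the difference was 2.03 (SE 0.37, limma adjusted p = 0.12) beside 4.20 (SE 0.42) with GFP. Against the spleens it differed by 1.22 in array 1 and by 2.90 in array 2. The spleens were near background, and the value of 5.61 on lymph node 1 lay below the 40th percentile of that array (5.69). Madcam1, an addressin also made by spleen sinus-lining cells, read 8.76, 8.52, 8.14 and 8.46 in the spleens and 8.51 and 6.81 in the lymph nodes. Array 1 lay among the spleens and array 2 below them.

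Of 15 lymphatic endothelium genes tested, 0 passed with oncogenic Vav1 by limma (3 at an unadjusted p under 0.05, median 0.18), and 3 were higher and 1 lower with GFP (median 0.66). The median was 0.03 in array 1 and 0.08 in array 2. Lyve1, the hyaluronan receptor of lymphatic endothelium, read 5.41, 5.31, 5.40 and 5.46 in the spleens, near background, and 6.06 and 6.33 in the lymph nodes, against 9.08 and 8.56 in the GFP lymph nodes. Both lymph nodes lay above the spleens, by 0.80 (SE 0.24, limma adjusted p = 0.51). Cdh5, the cadherin of endothelial junctions, read 7.20, 7.06, 7.23 and 6.85 in the spleens and 7.10 and 7.38 in the lymph nodes, and the organs overlapped. Of the lymph node stroma and homeostatic chemokine list, 0 of 15 passed with oncogenic Vav1 by limma (2 at an unadjusted p under 0.05, median -0.10), and 5 were higher and 1 lower with GFP (median 0.66). The median was 0.14 in array 1 and -0.20 in array 2.

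The GFP comparison, which contrasts other arrays than the oncogenic Vav1 comparison, served to count which tissue differences remained. Both came from 1 fit with a shared estimate of the spread. The oncogenic Vav1 arrays therefore also affected which genes passed with GFP, and the counts below are not independent of them. With the intronic control covariate 1357 of the 2144 genes that passed with GFP still passed, so the sets below depend on that choice. Of the 1554 genes higher in GFP lymph node, 825 (53.1%) were also above 0 with oncogenic Vav1, beside 47.9% of all genes tested. In 240 of them (15.4%) both lymph nodes lay above all 4 spleens, beside 7.33% of all genes, and 5 passed. Their median difference was 1.04 with GFP and 0.02 with oncogenic Vav1. Of the 590 genes lower in GFP lymph node, 402 (68.1%) were below 0 with oncogenic Vav1, 100 (16.9%) had both lymph nodes below all 4 spleens (8.03% of all genes), and 0 passed by limma. Their median went from -0.74 to -0.10.

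The interaction test called the difference smaller with oncogenic Vav1 in 918 of the 1554 genes and in 108 of the 590, which were chosen on the GFP arrays that also enter that test. Among 34 genes at least 4 log2 units higher in GFP lymph node, both oncogenic Vav1 lymph nodes lay above all 4 spleens in 28 (82.4%), the median was 4.86 with GFP and 1.76 with the oncogene, and 29 were called smaller. Among 223 genes at least 2 units higher it was 99 genes (44.4%), with medians of 2.74 and 0.41, and 203 were called smaller. Among 18 genes at least 2 units lower it was 1 gene (5.56%), with medians of -2.20 and 0.01, and 12 were called smaller. Whether the high and the low side differ was not tested.

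**Figure D2:**
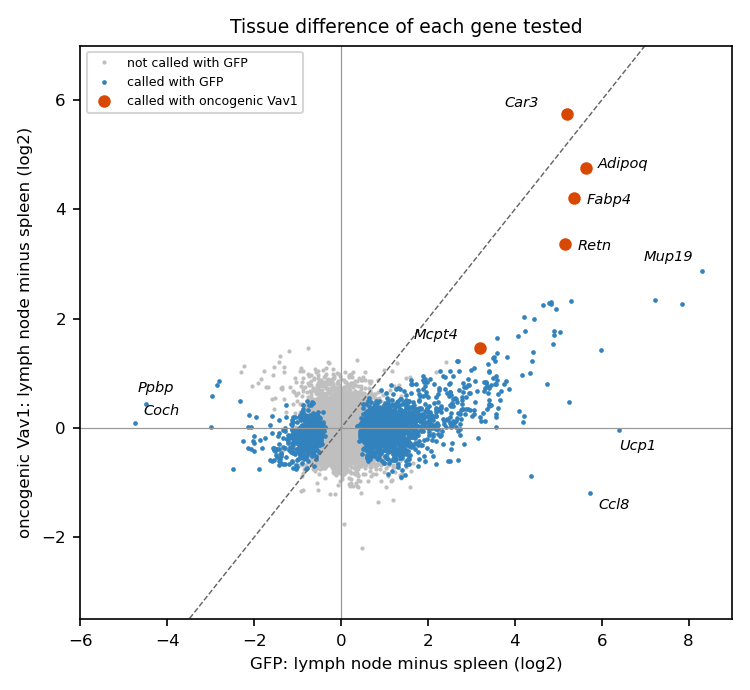
Log2 difference between lymph node and spleen with GFP (x axis) against that with oncogenic Vav1 (y axis), 1 point per gene tested, with named genes labelled. Car3, Fabp4, Adipoq and Retn lie high on both axes, while Ucp1 and Coch lie far from 0 on the x axis (6.40 and -4.74) and near 0 on the y axis (-0.03 and 0.09).

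Genes of the spleen's own stroma read at similar levels in both organs with the oncogene. Of 8 spleen mesenchyme and capsule genes tested, 0 passed by limma with oncogenic Vav1 (1 at an unadjusted p under 0.05) and the median difference was 0.00, whereas 5 were lower in GFP lymph node, with a median of -1.08. Arrays 1 and 2 gave medians of 0.06 and -0.17, with 0 calls by limma (1 in array 1 at an unadjusted p under 0.05). The mean over its 10 measured genes was 6.16, 6.25, 6.52 and 6.21 in spleens 1 to 4 and 6.29 and 6.18 in lymph nodes 1 and 2, against 5.48 in both GFP lymph nodes. Both lymph node arrays thus read at the level of the oncogenic Vav1 spleens, and above the GFP lymph nodes.

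Tcf21, a transcription factor needed for spleen development, read 6.30, 6.41, 7.25 and 6.05 in the spleens, 6.11 and 6.35 in the lymph nodes, and 4.76 and 4.65 in the GFP lymph nodes. Tlx1, a homeobox factor without which the spleen does not form, read 6.30, 6.40, 6.77 and 6.29 in the spleens and 6.50 and 6.45 in the lymph nodes, against 5.45 and 5.84 in the GFP lymph nodes. For both genes the oncogenic Vav1 lymph nodes overlapped with the spleens and lay above the GFP lymph nodes, which were near background. The difference was -0.24 (SE 0.29) for Tcf21 and 0.05 (SE 0.20) for Tlx1, beside -2.26 (SE 0.33) and -1.13 (SE 0.23) with GFP.

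Wt1, a factor of the spleen capsule, read 6.47, 6.41, 6.39 and 6.49 in the spleens and 6.79 and 6.37 in the lymph nodes, with array 1 above and array 2 below the spleens. Nkx2-5, a spleen development factor, was the list's only gene with both lymph nodes below all 4 spleens, at 5.81 and 5.82 against 6.11, 6.24, 6.20 and 6.18 (difference -0.37, SE 0.15, limma adjusted p = 0.53). Nkx2-3 and Nkx3-2, related homeobox factors, differed by 0.03 and -0.02, and Nkx2-3 read near background in every group.

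Coch, which encodes the secreted protein cochlin, was among the genes furthest apart between the constructs. It read 8.91, 9.08, 10.03 and 8.92 in the spleens, 8.93 and 9.64 in the lymph nodes, and 5.24 and 5.95 in the GFP lymph nodes, where it was near background. The oncogenic Vav1 organs overlapped (difference 0.09, SE 0.35), while the GFP organs stood apart by -4.74 (SE 0.40). Gdpd2, a glycerophosphodiester phosphodiesterase, read 7.85, 7.84, 8.49 and 7.90 in the spleens and 8.00 and 8.05 in the lymph nodes, against 5.46 and 5.84 in the GFP lymph nodes. Dll1, the Notch ligand that marginal zone B cells need, read 6.58, 6.63, 7.29 and 6.65 in the spleens and 6.93 and 6.63 in the lymph nodes, against 5.32 and 5.41. Cr2, the complement receptor of B cells and follicular dendritic cells, read 9.25, 9.27, 10.04 and 9.57, then 9.29 and 9.46. Its GFP spleens read 11.46 and 11.49 and its GFP lymph nodes 9.41 and 9.52, so that the oncogenic Vav1 spleens already stood near the GFP lymph nodes.

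**Figure D3:**
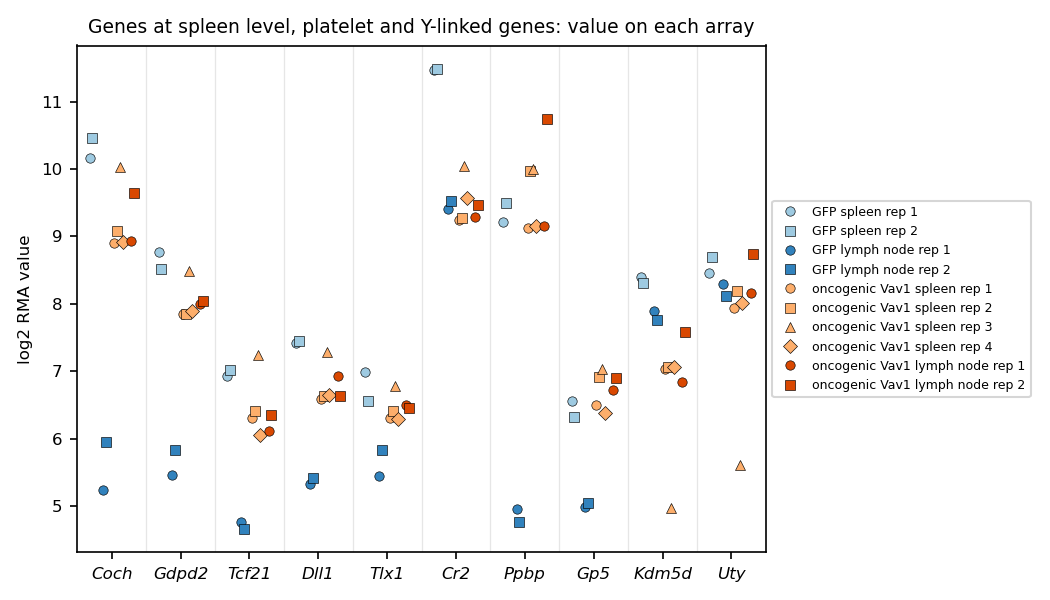
Log2 expression value on each of the 10 arrays for spleen stroma genes and other genes at spleen level, the complement receptor gene Cr2, platelet genes and Y-linked genes, 1 point per array. Coch, Tcf21 and Gdpd2 read at spleen level in both oncogenic Vav1 lymph nodes and lower in both GFP lymph nodes, and Kdm5d reads 4.97 in spleen 3 alone.

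Macrophages of the red pulp clear old red cells. Of their 14 genes tested, 0 passed with oncogenic Vav1 by limma (2 at an unadjusted p under 0.05, median -0.09), and 1 was higher and 4 lower with GFP (median -0.16). The median was -0.11 in array 1 and -0.10 in array 2. Slc40a1, the iron exporter ferroportin, read 8.66, 9.03, 9.83 and 8.60 in the spleens and 8.48 and 9.87 in the lymph nodes, beside 7.58 and 7.47 in the GFP lymph nodes. Array 1 lay below all 4 spleens and array 2 above them. The marginal zone B cell list mean was 8.25 and 7.83 in lymph nodes 1 and 2, against 8.11 to 8.55 in the spleens. The marginal zone and sinus macrophage list read 7.59 and 7.28, against 7.51 to 7.64. The splenic sinus endothelium list read 7.28 and 7.42, against 7.35 to 7.82. With GFP the median differences of these lists were -1.27, 0.98 and 0.20.

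Red cell genes were higher in lymph node array 2. Of 18 erythroid genes tested, 0 passed for the pair by limma (0 also at an unadjusted p under 0.05), and all 18 differences were above 0 with a median of 0.83. In 0 genes did both lymph nodes stand apart from the spleens, beside 7.33% of all genes above and 8.03% below. Array 1 against the spleens gave 0 calls by limma, 0 also at an unadjusted p under 0.05, and a median of -0.62. Array 2 gave 17 of 18 higher and a median of 2.12, where 11.7% of all genes were called higher and 16.8% lower. With GFP, 4 were lower in lymph node and 0 higher, with a median of -1.43. The list mean was 8.38, 9.74, 8.64 and 8.24 in spleens 1 to 4, 8.32 and 10.76 in lymph nodes 1 and 2, and 6.24 and 6.18 in the GFP lymph nodes. Lymph node 1 lay within the range of the spleens, among which spleen 2 was the highest.

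Rhag, a red cell membrane protein, read 8.46, 10.32, 8.54 and 8.29 in the spleens, 8.40 and 11.54 in the lymph nodes, and 4.22 and 4.47 in the GFP lymph nodes, near background. Lymph node 1 lay among the spleens, lymph node 2 above all of them, and spleen 2 above the other spleens. Alas2, the erythroid enzyme that begins haem synthesis, read 9.05, 10.47, 9.67 and 9.19, then 9.30 and 11.35, and the GFP lymph nodes read 6.64 and 6.56. Its pooled difference was 0.79 (SE 0.55, limma adjusted p = 0.59) against -2.86 (SE 0.63, limma adjusted p = 0.011) with GFP. Slc4a1, the band 3 anion exchanger, and Car2, a red cell carbonic anhydrase, differed by 0.49 and 0.58 with the oncogene and by -2.34 and -2.98 with GFP.

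The 10 haem synthesis genes followed, with 0 called for the pair by limma (0 also at an unadjusted p under 0.05, median 0.70), 10 higher in array 2 (median 1.57) and a median of -0.39 in array 1. Abcb10, a mitochondrial transporter of erythroid cells, differed from the spleens by -0.41 in array 1 and by 2.16 in array 2 (limma adjusted p = 0.0016). Cpox, a late enzyme of the pathway, differed by -0.51 and 1.67, and Lmo2, a haematopoietic cofactor of the erythroid list, by -0.17 and 1.61.

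Platelet genes read at spleen level or above in both lymph nodes. Of 16 tested, 0 passed for the pair by limma (2 at an unadjusted p under 0.05, median 0.31), 10 were higher in array 2 alone (median 0.75), and with GFP 3 were lower and 1 higher (median -0.56). Ppbp, a platelet chemokine precursor, read 9.13, 9.97, 10.00 and 9.16 in the spleens, 9.16 and 10.75 in the lymph nodes, and 4.95 and 4.76 in the GFP lymph nodes, near background. The oncogenic Vav1 organs overlapped (0.44, SE 0.41) and the GFP organs stood apart by -4.50 (SE 0.47). Gp5, a platelet adhesion receptor subunit, read 6.50, 6.92, 7.04 and 6.38, then 6.73 and 6.91, beside 4.98 and 5.05. Pf4, platelet factor 4, differed by 0.43 with the oncogene and by -0.73 with GFP.

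Neutrophil genes were lower in lymph node array 2 than in the spleens. Of 18 neutrophil genes tested, 0 passed by limma (2 at an unadjusted p under 0.05, median -0.36), and in 3 both lymph nodes lay below all 4 spleens (8.03% of all genes). Array 2 gave 10 lower and 1 higher (median -0.59), and array 1 gave 0 calls by limma (1 at an unadjusted p under 0.05, median -0.01). Chil3, a chitinase-like protein of myeloid cells, was the clearest of them, at 7.92, 7.81, 7.86 and 7.86 in the spleens and 7.20 and 7.33 in the lymph nodes (-0.60, SE 0.15, limma adjusted p = 0.38), while the GFP arrays read 4.16 to 4.57. S100a8 and S100a9, the calprotectin subunits, differed by -0.45 and -0.49. Ngp, a neutrophil granule protein, read 11.12, 10.99, 11.09 and 10.96 in the spleens and 11.02 and 10.28 in the lymph nodes, against 6.69 to 6.92 on the GFP arrays. For Ngp both organs with oncogenic Vav1 stood above both GFP organs.

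Of 10 eosinophil, mast cell and basophil genes tested, Mcpt4 alone passed for the pair and for array 1, and array 2 gave 3 higher and 1 lower. Cpa3, the mast cell carboxypeptidase, read 6.00, 5.89, 5.95 and 6.08 in the spleens and 6.59 and 7.46 in the lymph nodes, without overlap (1.04, SE 0.26, limma adjusted p = 0.35), beside 2.71 (SE 0.29) with GFP. Ccr3, the eotaxin receptor of eosinophils, read 6.63, 7.49, 7.69 and 5.93 in the spleens and 6.22 and 9.28 in the lymph nodes, so that only array 2 stood above the spleens. The basophil protease Mcpt8 differed by 0.14.

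Genes of dividing cells followed lymph node array 2. Of 32 proliferation genes tested, 0 passed for the pair by limma (2 at an unadjusted p under 0.05), and all 32 differences were above 0 (median 0.40). In 0 did both lymph nodes stand apart, beside 7.33% of all genes above the spleens and 8.03% below. The median was 0.87 in array 2 and -0.16 in array 1. Mki67, the proliferation antigen Ki-67, read 11.53, 12.11, 11.51 and 11.48 in the spleens and 11.51 and 12.66 in the lymph nodes, against 8.95 and 9.03 in the GFP lymph nodes. Birc5, Bub1 and Cdt1, which act in cell division and replication licensing, differed from the spleens by 0.94, 0.98 and 0.97 in array 2 and by -0.05, -0.11 and 0.11 in array 1. Red cell, haem synthesis and proliferation genes were high on the same array, and their part in one another was not tested.

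T cell genes were lower in lymph node array 2. Of 16 general T cell genes tested, 0 passed for the pair by limma (7 at an unadjusted p under 0.05). All 16 differences were below 0 (median -0.53), and in 4 both lymph nodes lay below all 4 spleens (8.03% of all genes). The median was -1.08 in array 2 and -0.01 in array 1. With GFP, 9 were higher in lymph node (median 1.03), where 11.6% of all genes were higher. Cd3e read 10.34, 10.13, 10.37 and 10.21 in the spleens and 10.28 and 8.50 in the lymph nodes, against 10.60 in both GFP lymph nodes. Cd4 read 9.38, 9.27, 9.17 and 9.36, then 9.14 and 8.02, and Cd3g, another CD3 chain, 9.76, 9.71, 9.96 and 9.48, then 9.41 and 8.22. Array 1 stood at or just below the spleens, and array 2 more than 1 log2 unit below them. Trat1, a T cell receptor adaptor, read 5.52 and 5.28 in the lymph nodes, near background.

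T cell programs had the same split. The lists were 18 Th1 and cytotoxic, 14 inhibitory receptor, 18 T follicular helper and 10 regulatory T cell genes. In array 2 their medians were -1.06, -0.74, -0.92 and -0.79. In array 1 the medians were 0.13, -0.05, 0.18 and 0.05. For the pair they were -0.56, -0.38, -0.38 and -0.34, with 0 calls by limma (2, 7, 3 and 1 genes at an unadjusted p under 0.05). Ccl5, a chemokine of effector T cells, read 12.03, 11.78, 12.12 and 11.84 in the spleens and 12.04 and 10.53 in the lymph nodes. Nkg7, a cytotoxic granule protein, Prf1, perforin, and Eomes, a transcription factor of effector T cells, differed by -1.83, -1.25 and -1.60 in array 2 and by 0.08, -0.12 and 0.16 in array 1.

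Among inhibitory receptors, Btla read 9.50, 9.45, 9.39 and 9.69 in the spleens and 9.20 and 9.01 in the lymph nodes, without overlap (-0.42, SE 0.13, limma adjusted p = 0.53). Ctla4 and Tox, a receptor and a transcription factor of exhausted T cells, differed by -0.66 and -0.67 for the pair. Naive T cell and homing genes had a median of -0.13 over 12 genes, with 0 called by limma (0 also at an unadjusted p under 0.05), and with GFP 4 were higher (median 0.34). Array 1 gave 0 calls by limma (1 at an unadjusted p under 0.05, median 0.07), and array 2 gave 4 lower (median -0.35). Lef1, a Wnt pathway factor that naive T cells express, read 7.08, 7.10, 7.46 and 7.15 in the spleens and 7.20 and 6.93 in the lymph nodes, against 9.78 and 9.81 in the GFP lymph nodes. Dapl1, high in naive T cells, differed by 0.19 with the oncogene and by 1.43 with GFP. For the naive genes both organs with oncogenic Vav1 stood below both GFP organs in Lef1 and Dapl1.

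B cell genes were close to even between the organs in array 1. Of 15 tested, 0 passed for the pair by limma (1 at an unadjusted p under 0.05), and all 15 differences were below 0 (median -0.31). The median was -0.65 in array 2 and -0.00 in array 1. With GFP, 11 were lower in lymph node (median -0.95). Ms4a1, which encodes CD20, read 9.52, 9.39, 9.92 and 9.66 in the spleens and 9.49 and 9.36 in the lymph nodes, with GFP spleens at 10.61 and 10.71 and GFP lymph nodes at 9.37 and 9.27. Blk, a B cell kinase, differed by -0.38 with the oncogene and by -1.54 with GFP. Of 13 plasma cell genes, 0 passed by limma (2 at an unadjusted p under 0.05, median -0.21), with 1 higher and 6 lower in array 2 (median -0.38) and 0 in array 1 by limma (1 at an unadjusted p under 0.05, median -0.08). Jchain, the joining chain of secreted antibody, read 10.71, 11.01, 11.02 and 10.62 in the spleens and 10.48 and 11.61 in the lymph nodes, and Mzb1, a chaperone of antibody assembly, 9.23, 9.04, 9.55 and 8.90, then 8.92 and 7.92. In array 2 the former lay above and the latter below all spleens.

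Myeloid and antigen presentation genes were lower in array 2. The medians there were -0.92 over 19 monocyte and macrophage genes and -0.93 over 10 MHC class II genes. In array 1 the medians were 0.07 and 0.10. For the pair the medians were -0.44 and -0.45, with 0 calls by limma (2 and 1 genes at an unadjusted p under 0.05). Lyz2 read 12.79, 12.60, 12.48 and 12.72 in the spleens and 12.82 and 11.32 in the lymph nodes. Csf1r, the receptor for macrophage colony-stimulating factor, read 10.75, 10.52, 10.66 and 10.44, then 10.62 and 9.78. H2-DMa and H2-DMb1, which load peptides onto class II, differed by -1.27 and -0.92 in array 2 and by 0.05 and 0.07 in array 1. Tyrobp, a signalling adaptor of myeloid and NK cells, differed by -1.19 and 0.07.

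Complement and chemokine genes were lower in lymph node array 2. Of 13 complement genes tested, 0 passed for the pair by limma (1 at an unadjusted p under 0.05, median -0.57), against 6 higher with GFP (median 1.39), and of 20 inflammatory chemokine genes 0 (3 at an unadjusted p under 0.05, median -0.36) against 7 higher (median 0.64). In array 2 the medians were -1.21 for the complement genes and -0.54 for the chemokine genes, and in array 1 they were 0.18 and 0.20. Ccl8, a monocyte chemokine, read 10.58, 10.23, 9.64 and 10.35 in the spleens and 10.12 and 7.97 in the lymph nodes. The GFP spleens read 4.43 and 4.86, near background, and the GFP lymph nodes 10.31 and 10.46. For Ccl8 the oncogenic Vav1 spleens stood at the level of the GFP lymph nodes. Ccl12, another monocyte chemokine, read 8.53, 8.32, 7.39 and 8.30, then 8.37 and 6.22, and GFP gave 4.14 and 3.41 in spleen and 8.04 and 8.24 in lymph node. C2, a complement protease precursor, read 7.43, 7.17, 7.00 and 7.12 in the spleens and 6.86 and 6.19 in the lymph nodes, with both lymph nodes lower (-0.67, SE 0.22, limma adjusted p = 0.53). C1qb, a chain of C1q, differed by -0.57 with the oncogene and by 1.54 with GFP.

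Migratory dendritic cells carry antigen from tissue to lymph node. Of their 13 genes, 0 passed with oncogenic Vav1 by limma (1 at an unadjusted p under 0.05, median -0.09) and 7 were higher in GFP lymph node (median 1.20). Array 1 gave 0 calls by limma (1 at an unadjusted p under 0.05, median 0.12), and array 2 gave 5 lower and 1 higher (median -0.32). Ccl22, a chemokine of these cells, read 6.00, 6.25, 6.02 and 5.96 in the spleens and 6.65 and 6.81 in the lymph nodes, without overlap (0.68, SE 0.17, limma adjusted p = 0.35), beside 8.96 and 9.32 in the GFP lymph nodes. Fscn1, the actin bundler fascin, read 9.70, 9.47, 9.13 and 9.41, then 9.77 and 7.93. Retnla, a resistin-like protein of macrophages and fat tissue, read 4.06, 3.82, 3.93 and 3.80 in the spleens and 3.88 and 4.87 in the lymph nodes, near background, against 9.39 and 9.50 in the GFP lymph nodes.

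Wider programs gave 0 calls for the pair by limma (4 interferon response, 2 glycolysis, 2 early response and 1 ribosome biogenesis genes at an unadjusted p under 0.05). The median was -0.43 over 25 interferon response genes, -0.37 over 16 glycolysis genes, -0.28 over 18 early T cell receptor response genes and -0.05 over 18 ribosome biogenesis genes. In array 2, 16 interferon genes were lower and 3 higher, 11 glycolysis genes lower and 2 higher, 9 early response genes lower, and 3 ribosome biogenesis genes higher. Of all genes tested, 11.7% were higher and 16.8% lower on that array. Array 1 gave 0 calls in these lists by limma (0 interferon response, 1 glycolysis, 0 early response and 1 ribosome biogenesis genes at an unadjusted p under 0.05). Irf7, Bst2 and Psmb9, an interferon-induced regulator, a virus tether and an immunoproteasome subunit, differed by -1.06, -1.05 and -1.12 there and by -0.04, -0.21 and 0.03 in array 1. Gapdh, a glycolytic enzyme, and Jun, an early response factor, differed by -1.19 and -1.18 in array 2.

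**Figure D4:**
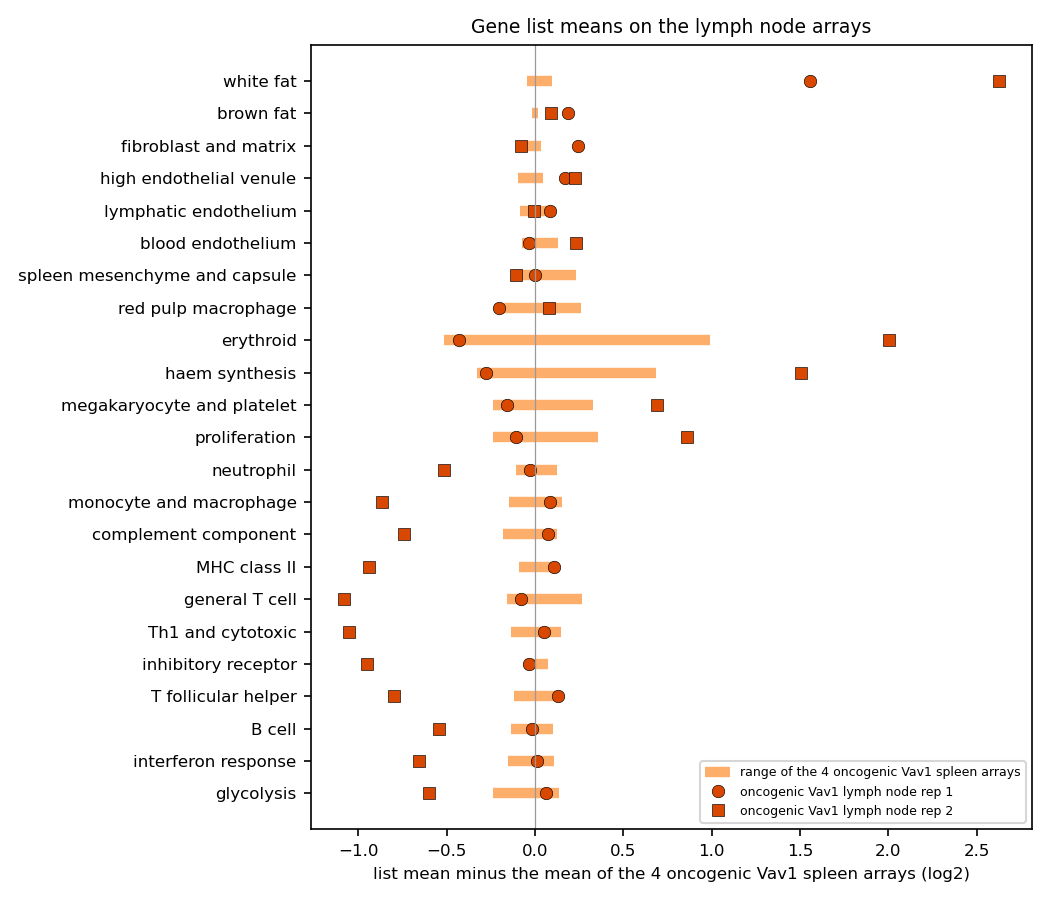
Mean log2 value of each gene list (y axis) on the oncogenic Vav1 lymph node arrays, as the difference from the mean of the 4 oncogenic Vav1 spleens (x axis, log2), with circles for lymph node 1, squares for lymph node 2 and bars for the range of the spleens. Both arrays lie right of the bar for white fat (means 7.30 and 8.37 against 5.69 to 5.84), while for erythroid and general T cell genes lymph node 1 (8.32 and 8.69) lies within the bar and lymph node 2 (10.76 and 7.68) outside it.

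Over all genes, array 1 alone against the 4 spleens gave 36 calls, 19 higher and 17 lower (0.269%, with 1117 at an unadjusted p under 0.05), and array 2 alone gave 3812, 1565 higher (11.7%) and 2247 lower (16.8%). Each of these fits takes the single lymph node array to vary like the other groups. The white fat list gave 7 of 15 higher with array 1 (median 1.19) and all 15 with array 2 (median 2.14), and 0 lower with either. The 5 genes called for the pair were among the calls of both.

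Within the animals that gave both organs, the same lists were compared by subtraction, with no test. White fat means differed by 1.57 in ONCO2, 2.68 in ONCO3 and 3.93 in the control CTL2, higher in lymph node in all 3. Erythroid means differed by -1.42 in ONCO2 and 2.12 in ONCO3, and by -0.79 in CTL2. Proliferation means differed by -0.46, 1.10 and 0.23, and general T cell means by 0.08, -1.35 and 0.98. The oncogenic Vav1 animals shared a direction for white fat and had opposite directions for the other 3 lists. These pairs rest on the animal names. For ONCO3 the Y-linked genes differed between the 2 organs, and whether both came from 1 animal was not tested.

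**Figure D5:**
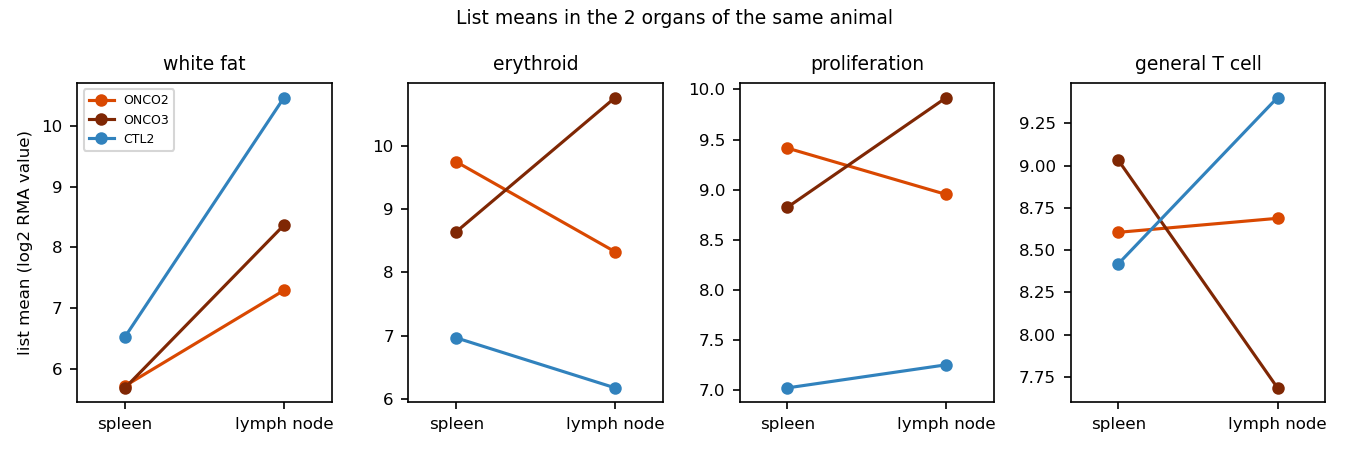
Mean log2 value of 4 gene lists (y axis, 1 panel per list) in spleen and lymph node of the same animal, with a line for each of ONCO2, ONCO3 and CTL2. White fat lines rise in all 3 animals (by 1.57, 2.68 and 3.93), and erythroid lines run opposite ways in ONCO2 (-1.42) and ONCO3 (2.12).

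Whether the tissue difference itself differed between constructs was tested as an interaction. It passed for 1077 genes (8.04%), 125 with a higher difference with oncogenic Vav1 (0.933%) and 952 with a lower one (7.11%). Each array centred on its own median gave 360 higher and 713 lower, and quantile normalization 332 and 852, with the median over all genes at 0.15 after centring in place of -0.01. With the animal as a fixed block it passed for 1 gene, and with the spleens of ONCO2 and ONCO3 alone for 346. Without GFP spleen 1 or 2 the count was 612 or 634, without GFP lymph node 1 or 2 it was 384 or 497, without oncogenic Vav1 spleen 1 it was 704, and without lymph node 1 or 2 it was 4201 or 2204. By list, 9 of 15 white fat, 7 of 9 brown fat, 7 of 15 matrix, 10 of 16 general T cell, 7 of 19 monocyte and macrophage and 7 of 13 migratory dendritic cell genes had a lower difference, and 0 of these lists' genes a higher one. Higher differences were called in 4 of 8 spleen mesenchyme, 4 of 16 platelet, 6 of 15 B cell and 2 of 18 erythroid genes, and 0 of their genes had a lower one. The interaction uses the same arrays as both tissue comparisons and is no separate evidence for them. Among the largest were Ccl8 (-6.91, SE 0.75), Ucp1 (-6.44, SE 0.24), Ppbp (4.94, SE 0.63) and Coch (4.82, SE 0.54), all past the threshold.

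Whether the Vav1 probe set reads the transferred construct as well as the host's gene is not given in the sources used here. Vav1 was 10.30, 9.99, 10.17 and 10.23 in the spleens and 10.17 and 9.27 in the lymph nodes. Array 1 lay among the spleens and array 2 below them. The pair differed by -0.47 (SE 0.21, limma adjusted p = 0.53) and array 2 alone by -0.90 (limma adjusted p = 0.00039). The GFP arrays read 9.63 and 9.83 in spleen and 9.52 and 9.69 in lymph node. The level on array 2 was below all GFP arrays, beside the lower T cell genes on the same array, and its part in the tissue difference was not tested.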

How the data were processed

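Single-colour Affymetrix arrays were read from biotin-labelled total RNA. The deposited values are log2 values that the authors made with RMA, and R 3.6.3 is also named, both per the submitters' processing notes. They were used as deposited. RMA normalizes between arrays, so a shift shared by most genes is not seen. The number of arrays limits the precision. The chip annotation version was not given in the sources used here.

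A single gene symbol was given for 19572 of 29129 probe sets, and the highest mean represented each of 55 genes with several, leaving 19505 genes. Genes above the 40th percentile of their array on at least 2 arrays were tested (13393, with 6112 left out), and a group mean below all its arrays' percentiles was called near background. A model of the 4 groups over all 10 arrays was fitted in R 4.3.3 (packages limma 3.58.1, statmod 1.5.0) using a variance trend, the animal as a random block (correlation -0.11, 6 residual degrees of freedom) and two-sided moderated tests with Benjamini-Hochberg adjustment over all genes tested (threshold 0.05). The block weights arrays, so fitted differences can depart slightly from differences of means. On simulated data for the oncogenic Vav1 comparison over 13393 genes, 89% of 100 genes shifted by 1 log2 unit and 100% of 100 shifted by 2 were recovered. Each simulated gene had the same spread in every group, unlike the oncogenic Vav1 lymph node arrays, so the recovery holds for the simulated arrays alone.

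The genes named were those past the threshold whose organs did not overlap (up to 15 each way), up to 8 each way in the interaction, up to 5 per list by p, all members of the spleen mesenchyme, high endothelial venule and sex-linked lists, defining markers and Vav1. The ranking skipped predicted genes, receptor segments and small RNAs. Members, the 45 lists and tests were chosen with earlier results of these data known. Not every list is described. Names came from the platform annotation, matched to RefSeq by gene ID for all 19572.

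Alternatives covered the filter, normalization, variance model, weights, probe set choice, a fold minimum, blocks, arrays left out and an intronic control covariate.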

Additional observations from a re-analysis of the deposited data

Results flagged for a closer look

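In a group of 4 spleens a single array can stand apart from the other 3, and chance alone singles out about 5% of such groups. Of 139 values tested over the oncogenic Vav1 spleens (45 list means and 94 genes), 16 had an array apart, 9 of them spleen 3, 5 spleen 2, 2 spleen 1 and 0 spleen 4. List means include some of the genes tested, so these values are not independent and the count is no test against 5%. Spleen 3 read 6.85 for the NK cell list mean, with the others at 6.25 to 6.34, and 5.82 for the sex-linked list mean, with the others at 7.99 to 8.12. The Y-linked genes behind the latter read 6.88 (Eif2s3y), 4.97 (Kdm5d) and 5.61 (Uty) on that array. Spleen 3 was also apart for Coch (10.03), Dll1 (7.29), Gdpd2 (8.49) and Lef1 (7.46), all higher than the other spleens. Spleen 2 was apart for Abcb10 (9.13), Car2 (12.58), Rhag (10.32), Mki67 (12.11) and Fabp4 (6.96), and spleen 1 for Nkx2-3 (5.67) and Psmb9 (10.39), again all higher.

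For 46 of 93 genes named and tested, the tissue difference with oncogenic Vav1 differed from that with GFP in the interaction test (limma adjusted p under 0.05), 32 of them lower with oncogenic Vav1 and 14 higher. Over all genes tested it was 8.04%, and since genes were named partly by this interaction, the share among them is partly fixed by the choice. Among fat and urinary protein genes the difference changed by -2.47 for Plin1, -3.17 for Pck1, -5.44 for Mup19, -5.58 for Mup9, -4.89 for Mup22 and -4.56 for Mup2 on the log2 scale, and among brown fat genes by -6.44 for Ucp1, -2.99 for Cidea and -3.25 for Cox8b. Among matrix and vessel genes the difference changed by -3.10 for Lum, -3.34 for Dcn, -2.65 for Col3a1, -1.51 for Cdh5, -2.94 for Lyve1 and -2.17 for Glycam1. Among mast cell genes it changed by -1.74 for Mcpt4 and -1.68 for Cpa3.

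T cell genes also had a lower tissue difference with oncogenic Vav1 than with GFP, which is not a lower level. The change was -2.28 for Cd3g, -2.04 for Cd4, -1.27 for Trat1, -2.22 for Nkg7, -2.83 for Ccl5, -1.98 for Ctla4 and -1.10 for Lef1, and -1.95 for Jun. Chemokine, complement and dendritic cell genes gave -6.91 for Ccl8, -5.25 for Ccl12, -2.44 for Ccl22, -3.27 for Fscn1, -2.11 for C1qb and -2.23 for C2, and Retnla -4.79.

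Higher differences with oncogenic Vav1 were found in genes at spleen level in both its organs, at 4.82 for Coch, 2.03 for Tcf21, 1.18 for Tlx1, 1.26 for Wt1, 3.02 for Gdpd2 and 2.07 for Dll1. Cr2 gave 1.87, but there both oncogenic Vav1 organs stood near the GFP lymph nodes and below the GFP spleens. Blood cell genes gave 3.65 for Alas2, 2.83 for Slc4a1, 4.94 for Ppbp and 1.56 for Gp5, and B lineage genes 1.15 for Ms4a1, 1.16 for Blk and 1.81 for Jchain.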

How the results depend on the processing

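With oncogenic Vav1 the count of 5 genes stayed within 1.5 times under 11 of 28 alternatives. Among them it was 4 with quantile normalization, 5 with centring or no variance trend, and 6 with array weights, which kept 4 of the 5 genes. It was 13 with no filter, 9 with no animal block, 0 with the animal as a fixed block, 3 from the oncogenic Vav1 arrays alone, 1 with the spleens of ONCO2 and ONCO3 alone, 41 without both ONCO3 arrays, 3872 without both ONCO2 arrays, 94 with the intronic control covariate and, as an alternative added after seeing the data, 20 with the animal names of the lymph node arrays exchanged. Leaving out each array in turn gave 3 to 3812. The GFP count of 2144 became 3879 with array weights, 24 with the fixed animal block, 1395 with those 2 spleens alone, 4705 without both ONCO3 arrays and 4273 without both ONCO2 arrays, and 863 to 4280 without single arrays. The interaction count of 1077 became 1, 346, 2726 and 4230 under the last 4 of these and 384 to 4201 without single arrays. In both, the lowest count came without GFP lymph node 1. The highest came without oncogenic Vav1 lymph node 2 for GFP and without lymph node 1 for the interaction. With the intronic control covariate the GFP count was 2855, of which 1357 were among the 2144. The interaction count was 1019 with it, of which 662 were among the 1077. These controls had medians of 5.87 and 5.69 in the GFP spleens and 5.46 and 5.38 in the GFP lymph nodes.

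The replicate numbers of the titles do not mark the same animal. With the replicate number as a block, 0 genes passed with oncogenic Vav1 (819 at an unadjusted p under 0.05 by limma), 1871 with GFP and 762 in the interaction. Deviations from the group means correlated at 0.33 and 0.51 between same-numbered oncogenic Vav1 arrays and at -0.03 between GFP arrays, and between organs of an animal at -0.51 (ONCO2), 0.02 (ONCO3) and 0.03 (CTL2). In a group of 2 arrays the deviations are mirror images. The values 0.51 and -0.51 are therefore the same number with its sign turned, as are -0.03 and 0.03 with GFP. These correlations cannot tell which arrays pair.

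The difference of each of the 5 called genes stayed above 0 under every alternative it was tested in. Car3 passed in 26 of 28 alternatives, Fabp4 and Adipoq in 25 of 28, Retn in 16 of 28 and Mcpt4 in 15 of 27. The fixed animal block left 1 residual degree of freedom. Ucp1 was the only named gene to keep its interaction under it.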
